A study of Homo sapiens with 12 samples.

Results

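The genes described here encode the proteins of the cytosolic ribosome. Members were the probe sets that name a single gene whose symbol is RPSA, RPLP0, RPLP1 or RPLP2, or RPL or RPS with a number and at most a short paralog suffix. Pseudogenes, RPS6 kinases, antisense RNAs and mitochondrial ribosomal proteins were left out. The rule found 121 probe sets of 60 genes, of 41091 probe sets and 19775 genes that could be tested. Of the 60 genes, 39 belong to the large and 21 to the small subunit, and 8 are paralogs such as RPL22L1. RPLP0, RPSA, RPL5, RPL10 and RPL23 were not analysed here.

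The series asked what short nucleic acids that fold into G-quadruplexes (G4, stacks of guanine tetrads) do to expression in 3 human cancer cell lines, PC-3 (prostate), HBC4 (breast) and MKN74 (gastric). Each line was reverse transfected with (uuaggg)4, an RNA of telomeric repeats that forms a G4, with AS1411, a G4-forming DNA aptamer that binds nucleolin, with (uuaccc)4, an RNA that lacks guanine, or with the Lipofectamine RNAiMAX reagent alone, and (uuaccc)4 and the reagent are the controls. The oligonucleotides were given at 1 µg (about 100 pmol) per well of 300000 cells, and the cells grew without attachment for 72 h before 100 ng of total RNA went onto an Affymetrix array. There were 12 arrays, 1 per line and treatment, so a treatment was replicated over 3 lines and the labels name no separate cultures.

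The deposited values are log expression, with the base taken as 2, relative to the median of the same probe set over the 12 arrays. They carry no absolute level, no detection call and no depth, and the number of arrays limits the precision. Correlations over the tested probe sets were at least 0.872 within a line and at most -0.17 between arrays of different lines, the centring having lowered the second value. Prostate markers were highest in PC-3 for 4 of 6 measured genes and breast markers in HBC4 for 6 of 8. Stomach markers were highest in MKN74 for only 2 of 8, and TFF1 and TFF2 had their highest means in PC-3 (8.15 and 8.26 above their medians), so MKN74 is a gastric line by label, not by these markers. Epithelial markers were highest in HBC4 for 2 of 4 genes and in MKN74 for 2, and all 4 were lowest in PC-3 (EPCAM -2.71). Endothelial markers were highest in HBC4 for 3 of 4 (KDR 1.44) and in PC-3 for PECAM1 (2.55). Leukocyte markers were highest in HBC4 for 2 of 3 (CD14 3.01, CD3E 0.06), where PTPRC had -0.05, and fibroblast markers in PC-3 for 2 of 4 and in MKN74 for 2. The part of these markers in the line differences was not tested. An array measures the RNA of a whole culture, so a change in the mix of cells and a change in RNA per cell cannot be told apart.

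Ribosomal protein genes are among the most strongly transcribed genes of growing cells. Their proteins assemble with ribosomal RNA in the nucleolus in fixed proportions. Most of their mRNAs begin with a C followed by an unbroken run of pyrimidines, the 5′ terminal oligopyrimidine (TOP) tract, through which mTOR signalling and the RNA-binding protein LARP1 control translation and stability. Outside the ribosome, RPL5, RPL11 and RPL23 bind MDM2 when assembly is disturbed and so stabilise p53.

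The start of a ribosomal protein transcript is therefore shown for the 7 genes with a probe set past the threshold in the G4 comparison and for RPS27L, whose probe sets lay lower with G4 oligonucleotides. Each sequence runs 5′ to 3′ over 20 bases before and 20 bases from the annotated start in RefSeq (GRCh38.p14), and capitals mark the unbroken run of C and T that covers the start base. The windows are chr1:6199576-6199615 for RPL22 (minus strand), chr3:197950170-197950209 for RPL35A (plus), chr20:62387083-62387122 for RPS21 (plus), chr5:82278335-82278374 for RPS23 (minus), chr9:19380217-19380256 for RPS6 (minus), chr22:39319604-39319643 for RPL3 (minus), chr14:46651762-46651801 for RPL10L (minus) and chr15:63157458-63157497 for RPS27L (minus).
RPL22: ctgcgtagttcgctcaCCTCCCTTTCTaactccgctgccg
RPL35A: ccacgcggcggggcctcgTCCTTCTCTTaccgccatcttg
RPS21: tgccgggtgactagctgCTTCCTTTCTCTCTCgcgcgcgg
RPS23: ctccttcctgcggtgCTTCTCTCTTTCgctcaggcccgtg
RPS6: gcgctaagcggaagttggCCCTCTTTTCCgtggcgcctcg
RPL3: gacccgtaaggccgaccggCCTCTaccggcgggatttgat
RPL10L: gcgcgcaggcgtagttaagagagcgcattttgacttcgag
RPS27L: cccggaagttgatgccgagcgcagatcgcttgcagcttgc
The runs were 15 bases in RPS21, 12 in RPS23, 11 in RPL22 and RPS6, 10 in RPL35A and 5 in RPL3, and the start base was no pyrimidine in RPL10L and RPS27L. These lengths include bases before the annotated start. Counted from the start base, the runs were 12 bases in RPS21, 9 in RPS6, 8 in RPL35A, 7 in RPS23 and RPL22 and 4 in RPL3.

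A start window was given for 52 of the 60 genes and not for RPL23A, RPL30, RPL37, RPL39L, RPL3L, RPL7, RPL8 and RPS15A. A C at the start followed by 4 pyrimidines was present in 35 of the 52 genes (67.3%), against 1404 of all 27305 genes with a window (5.14%). The motif CCGGAA, searched on both strands (as CCGGAA or TTCCGG) in the 300 bases from 250 before the start to 50 after it, was present in 30 of the 52 genes (57.7%), against 20.1% of all genes with a window. The motif search covers letters only, and a match is no evidence of binding.

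With the G4 oligonucleotides, ribosomal protein probe sets lay slightly and broadly higher. The median log2 difference between the mean of the G4 arrays and the mean of the control arrays was 0.09 over the 121 members and 0.01 over all 41091 probe sets. It was positive for 106 members (87.6%), against 54.4% of all probe sets, and positive in each of the 3 lines for 79 members (65.3%), against 19.3%. Of the members, 9 rose past an adjusted p of 0.05 (7.44%; background 0.613%) and 0 fell (background 1.53%), in a limma fit of all probe sets with treatment and cell line. An unadjusted p under 0.05 was reached by 39 of the 121 members, against 7283 of all 41091 probe sets. Of these 39 members, the 3 probe sets of RPS27L were on the lower side.

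**Figure D1:**
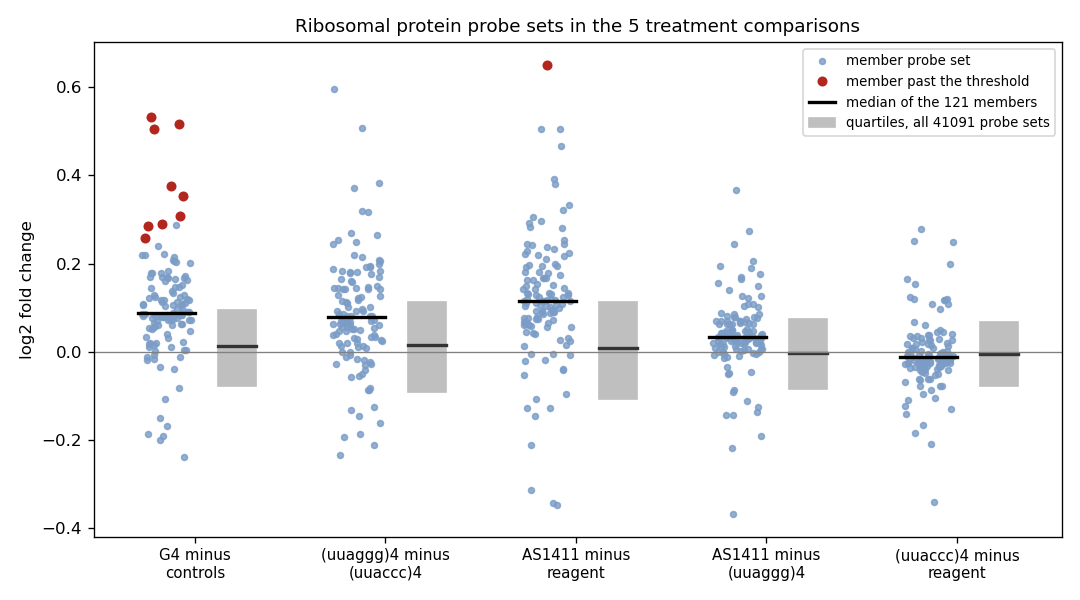
The y axis gives the log2 fold change of each of the 121 ribosomal protein probe sets (points) in the 5 treatment comparisons on the x axis, with the members' median as a black line and the quartiles of all 41091 probe sets as a grey box. The members' medians are 0.09 for G4 minus controls, 0.08 for (uuaggg)4 minus (uuaccc)4, 0.12 for AS1411 minus reagent, 0.03 for AS1411 minus (uuaggg)4 and -0.01 for (uuaccc)4 minus reagent, and red points mark the probe sets past the threshold.

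The shift showed on single arrays. In PC-3 the median over the members was 0.11 with (uuaggg)4 and 0.14 with AS1411, against 0.01 with (uuaccc)4 and 0.02 with the reagent. In HBC4 it was 0.02 with both G4 oligonucleotides, against -0.06 with (uuaccc)4 and -0.07 with the reagent. In MKN74 it was -0.0007 with (uuaggg)4 and 0.03 with AS1411, against -0.09 with (uuaccc)4 and -0.06 with the reagent. In every line both G4 arrays lay above both control arrays. The median over all probe sets had this same order in every line, with smaller gaps. In PC-3 it was -0.0071 with (uuaggg)4 and -0.01 with AS1411, against -0.0226 with (uuaccc)4 and -0.0205 with the reagent. It stayed between -0.02 and 0.02 on each of the 12 arrays, so the members differ in the size of the shift, not in the order of the arrays.

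Among the large subunit proteins, 5 of 69 probe sets rose, of the genes RPL22, RPL35A, RPL10L and RPL3. RPL22, an RNA-binding protein of the large subunit, had values on probe set 221726_at of 0.94 with (uuaggg)4 and 0.94 with AS1411 in PC-3, against 0.35 with (uuaccc)4 and 0.38 with the reagent. In HBC4 the values were 0.06 and 0.08 with the G4 oligonucleotides, against -0.62 with (uuaccc)4 and -0.57 with the reagent, and in MKN74 -0.06 and -0.08, against -0.31 and -0.39 in the same order. The groups did not overlap in any line. The log2 fold change was 0.51 ± 0.20 (SD over n = 3 lines, 1.42-fold, limma adjusted p = 0.00687). A second probe set of RPL22, 214042_s_at, rose by 0.29 ± 0.02 (adjusted p = 0.0325), and the remaining 3 of its probe sets had values between 0.12 and 0.18 without passing.

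RPL35A is a large subunit protein that is mutated in some patients with Diamond-Blackfan anaemia. On probe set 238026_at it had 1.38 with (uuaggg)4 and 1.66 with AS1411 in PC-3, against 0.88 with (uuaccc)4 and 1.08 with the reagent. The HBC4 values were 0.22 and 0.20 with the G4 oligonucleotides, against -0.24 with (uuaccc)4 and -0.54 with the reagent. The MKN74 values were -0.38 and -0.20, against -0.57 and -0.83. Within each line the groups did not overlap, and the difference was 0.52 ± 0.10 (adjusted p = 0.00969). The other 4 probe sets of RPL35A ranged from -0.04 to 0.09 and did not pass, so the call rests on a single probe set of this gene.

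RPL10L, a retrotransposed copy of RPL10 known from the testis, had 0.73 with (uuaggg)4 and 0.83 with AS1411 in PC-3, against 0.63 with (uuaccc)4 and 0.52 with the reagent. In HBC4 it had 0.10 and 0.14, against -0.32 and -0.30, and in MKN74 -0.22 and -0.10, against -0.65 and -0.52. The difference was 0.35 ± 0.13 (adjusted p = 0.0215) on its only probe set. Its sequence is close to that of RPL10, and which of both transcripts the probes read was not tested. RPL3, a core protein near the peptidyl transferase centre, rose by 0.31 ± 0.135 on its only probe set, 215963_x_at (adjusted p = 0.0353). It had 0.32 and 0.33 with the G4 oligonucleotides in PC-3, against -0.13 with (uuaccc)4 and -0.06 with the reagent, and the groups did not overlap in the other lines. The largest positive values that did not pass in the large subunit belonged to RPL10A (0.24, adjusted p = 0.0606) and RPL14 (0.22, adjusted p = 0.0725).

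Among the small subunit proteins, 4 of 52 probe sets rose, of the genes RPS23, RPS21 and RPS6. RPS23, a protein at the decoding centre, had on probe set 227722_at 0.56 with (uuaggg)4 and 0.63 with AS1411 in PC-3, against 0.0007 with (uuaccc)4 and 0.18 with the reagent. In HBC4 it had 0.60 and 0.83 with the G4 oligonucleotides, against -0.0037 with (uuaccc)4 and -0.10 with the reagent. In MKN74 it had -0.0007 with (uuaggg)4 and -0.20 with AS1411, against -0.63 with (uuaccc)4 and -0.22 with the reagent, so AS1411 and the reagent differed little there. The difference was 0.53 ± 0.22 (1.45-fold, adjusted p = 0.0178), the largest among the members, and the other probe set of RPS23 gave 0.06 (adjusted p = 0.609).

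RPS21, a small protein of the eukaryotic 40S subunit, had on 214097_at 4.21 with (uuaggg)4 and 4.19 with AS1411 in PC-3, against 3.71 with (uuaccc)4 and 3.77 with the reagent. HBC4 had 0.16 and 0.15, against -0.18 and -0.15, and MKN74 had -0.56 and -0.53, against -0.84 and -0.94. The difference of 0.38 ± 0.07 (adjusted p = 0.0102) was small beside the gap between PC-3 and the other lines. The other RPS21 probe set gave 0.17 ± 0.08 without passing (adjusted p = 0.161).

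RPS6, the substrate of the S6 kinases in mTOR signalling, rose on 2 of 4 probe sets. On 200081_s_at it had 0.15 and 0.21 with (uuaggg)4 and AS1411 in PC-3, against -0.13 with (uuaccc)4 and -0.14 with the reagent. HBC4 had 0.38 and 0.39, against 0.15 and 0.13, and MKN74 had -0.35 and -0.19, against -0.63 and -0.50. The difference was 0.29 ± 0.04 (adjusted p = 0.032), and 201254_x_at gave 0.26 ± 0.06 (adjusted p = 0.0495). Probe set 209134_s_at had 0.17 ± 0.02 (adjusted p = 0.16) and 211690_at had -0.11 ± 0.34 (adjusted p = 0.691).

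**Figure D2:**
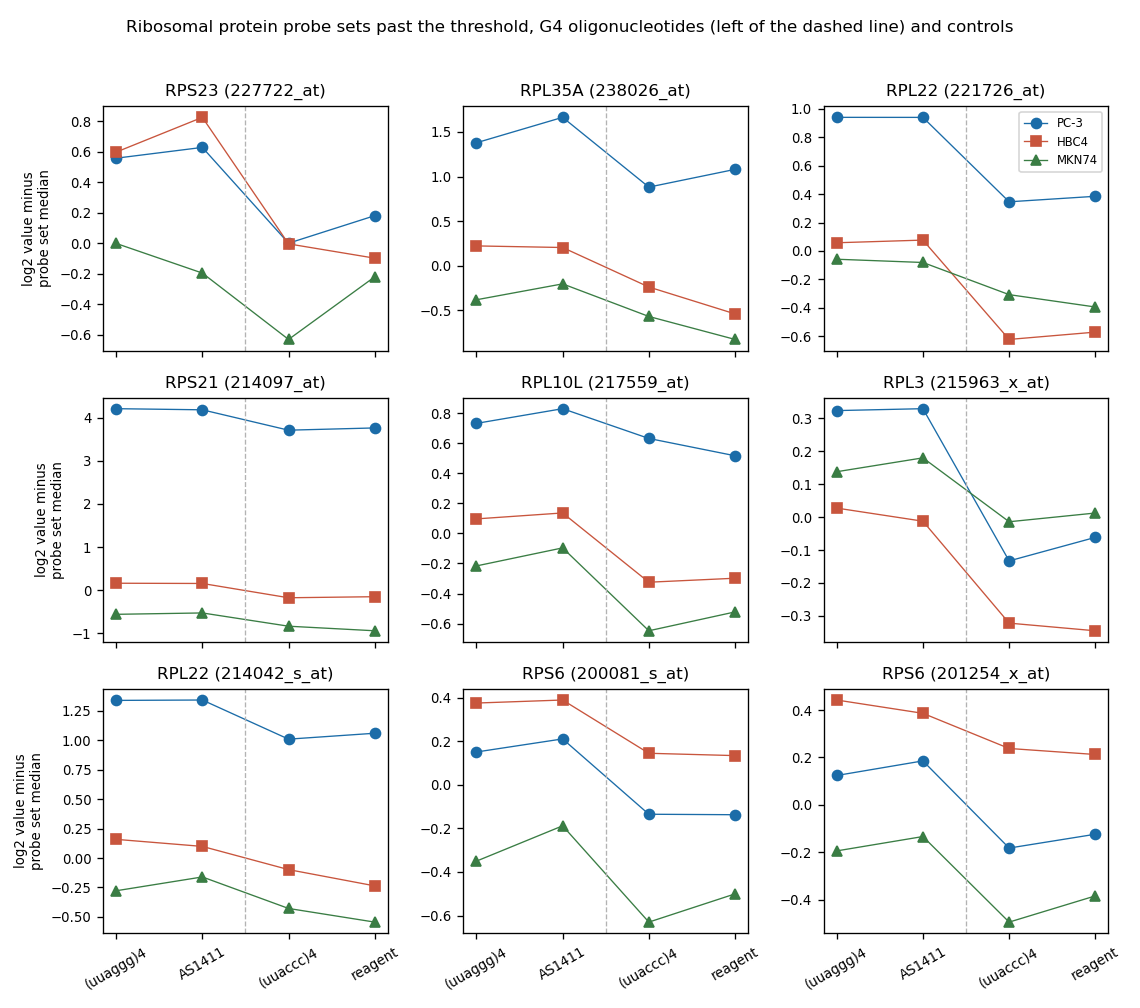
Each panel shows a probe set past the threshold in the G4 comparison, with the log2 value minus the probe set median on the y axis (panels have different scales), the 4 treatments on the x axis, and a point for each array joined by cell line (PC-3 blue circles, HBC4 red squares, MKN74 green triangles). In each panel and line both G4 values, left of the dashed line, lie above both control values.

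Both G4 arrays lay above both control arrays for 74 members in PC-3 (61.2%; background 25%), 76 in HBC4 (62.8%; background 25.9%) and 77 in MKN74 (63.6%; background 21.3%). They lay below both control arrays for 7 members in PC-3 (5.79%; background 23.3%), 12 in HBC4 (9.92%; background 20.6%) and 9 in MKN74 (7.44%; background 22%). In all 3 lines at once, 48 probe sets of 32 genes were above (39.7%; background 2.95%). These included all 3 probe sets of RPL14, both of RPL12, RPL29, RPS21 and RPS4X, 4 of 5 of RPL22, 3 of 4 of RPS10 and 3 of 4 of RPS6. A single probe set, 222487_s_at of RPS27L, was below in all 3 lines (0.826%; background 3.51%).

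**Figure D3:**
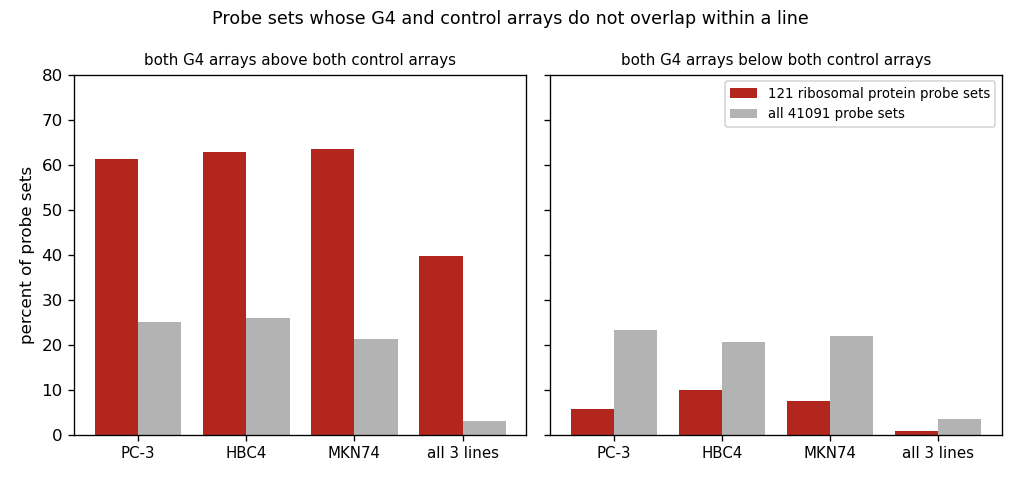
Bars give the percent of probe sets whose 2 G4 arrays lie above (left panel) or below (right panel) both control arrays, within each line and in all 3 lines, for the 121 ribosomal protein probe sets (red) and all 41091 probe sets (grey). The members' bars above reach 61.2% to 63.6% in single lines and 39.7% in all 3, against 2.95% of all probe sets in all 3.

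The median difference was 0.09 for the 69 large subunit and 0.09 for the 52 small subunit probe sets. The acidic stalk proteins RPLP1 and RPLP2, which recruit elongation factors to the ribosome, had 0.07 on each RPLP1 probe set and 0.09 and -0.02 on those of RPLP2, with 0 of 4 past the threshold. RPL11, the MDM2-binding protein with a member probe set, had 0.07 (adjusted p = 0.592). By gene, 49 of 60 genes had only positive probe sets, 7 had both signs and 4 had only negative ones, namely RPL39, RPL39L, RPL3L and RPS27L. Genes with a C and 4 pyrimidines at the start had a median gene-mean difference of 0.09 (33 of 35 positive), and the remaining genes with a window had 0.11 (16 of 17 positive).

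By type, probe sets that end in _x_at, whose probes also match other transcripts, were positive for 34 of 36, those ending in _s_at for 33 of 39 and the plain _at ones for 39 of 46, with medians of 0.11, 0.07 and 0.10. Ribosomal protein pseudogenes are numerous, and how far their transcripts add to these values was not tested. The count of 9 varied with the arrays and the model: it was 3 to 5 when any single array was left out, 0 without PC-3, 0 without HBC4, 2 without MKN74 and 0 without cell line in the model, while the members' median stayed between 0.07 and 0.12 under all 24 alternatives.

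The single treatments were each set against their own control arrays, with an estimate of the spread shared by all 12 arrays, and the same arrays make up the G4 comparison. For (uuaggg)4 against (uuaccc)4, its matched RNA control, the members' median was 0.08 and 96 were positive (79.3%, against 53.8% of all probe sets). None passed the threshold in limma (background 0.0122% higher and 0.204% lower). Of the 121 members 16 had an unadjusted p under 0.05, against 4106 of all 41091 probe sets. The largest values were those of RPS23 (0.60, adjusted p = 0.179), RPL22 (0.51, adjusted p = 0.129), RPL35A (0.38, adjusted p = 0.32) and RPS21 (0.37, adjusted p = 0.18).

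For AS1411 against the reagent the median was 0.12 and 104 members were positive (86%, against 52.3% of all probe sets). Of the 121 members 28 had an unadjusted p under 0.05, against 5223 of all 41091 probe sets. RPL35A on 238026_at was the single member past the threshold (0.65, 1.57-fold, adjusted p = 0.0384; background 0.0608% higher and 0.404% lower). RPL22 had 0.50 (adjusted p = 0.0747), RPS23 had 0.47 (adjusted p = 0.179) and RPL10L had 0.39 (adjusted p = 0.11). No control DNA oligonucleotide was part of the series, so the reagent is the only control of AS1411 that differs from it by the oligonucleotide alone. The call of RPL35A was lost, leaving 0, after quantile normalization, with the probe sets of a gene averaged, with cell line out of the model, with only these arrays in the fit, without any of the lines, and without any array except the reagent or (uuaccc)4 array of PC-3, the (uuaggg)4 array of HBC4 or the (uuaccc)4 array of MKN74.

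Between the G4 oligonucleotides, AS1411 minus (uuaggg)4 had a median of 0.03 with 97 members positive (80.2%, against 48.8% of all probe sets). Of the 121 members 2 had an unadjusted p under 0.05, against 1955 of all 41091 probe sets. No member passed, nor did any other probe set (background 0% in either direction). The difference was 0.15 for RPL35A (95% interval -0.10 to 0.40), 0.03 for RPS23 (-0.26 to 0.33) and -0.0014 for RPL22 (-0.23 to 0.23). The control oligonucleotide (uuaccc)4 against the reagent gave a median of -0.01 and 44 positive members (36.4%, against 48.2% of all probe sets). Of the 121 members 1 had an unadjusted p under 0.05, against 1224 of all 41091 probe sets. None passed the threshold (background 0% in either direction).

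The genes around the ribosomal proteins were read from lists of translation genes. Of 15 measured genes of 20 that are listed as carrying a TOP tract but encode other proteins, mostly of translation, with 48 probe sets, 11 probe sets rose with G4 oligonucleotides (22.9%; background 0.613%) and 0 fell (background 1.53%), and the median was 0.12. They belonged to the initiation factor EIF4B (0.64 ± 0.24, adjusted p = 0.00546), the histone chaperone NAP1L1 (0.55 ± 0.15, adjusted p = 0.0024), the elongation factors EEF1A1 (0.42 ± 0.20, adjusted p = 0.0182) and EEF2 (0.32 ± 0.09, adjusted p = 0.0349), and the initiation factor subunits EIF3L (0.39 ± 0.14, adjusted p = 0.0149) and EIF3F (0.30 ± 0.16, adjusted p = 0.0447). NAP1L1 rose on 5 of 7 probe sets, and another probe set of EEF1A1 gave -0.02.

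Of 140 mitochondrial ribosomal protein probe sets, which serve a separate ribosome encoded by other genes, 6 rose (4.29%; background 0.613%) and 0 fell (background 1.53%), with a median of 0.09. The difference was positive for 110 of them (78.6%) and positive in all 3 lines for 70 (50%), beside 87.6% and 65.3% of the cytosolic members. MRPL30 led with 0.47 ± 0.14 (adjusted p = 0.00798), and the lowest of its 5 probe sets gave 0.08. Of 52 ribosome assembly probe sets (27 genes), 1 rose (1.92%), that of FBL, the methyltransferase of ribosomal RNA (0.40 ± 0.12, adjusted p = 0.0145), and 0 fell, with a median of 0.07. Of 124 probe sets matched by initiation factor symbols, 11 of which are also in the TOP list, 11 rose (8.87%) and 2 fell (1.61%). Their median was 0.06. The match also takes in regulators with such symbols. Those that rose include a probe set of the kinase EIF2AK4 (0.58), whose other probe set gave -0.12, and that of EIF4EBP1. Both that fell belong to EIF2AK2, the interferon-induced kinase that phosphorylates EIF2S1 (-1.06 ± 0.49, adjusted p = 0.00304, and -0.87 ± 0.37, adjusted p = 0.0023). EIF2AK2 has 3 probe sets, and its remaining probe set did not pass. Of 22 probe sets of translation signalling genes, 1 rose (4.55%), that of the translation inhibitor EIF4EBP1 (0.35 ± 0.09, adjusted p = 0.021), and the median was -0.05, with 9 positive. This EIF4EBP1 probe set is also counted among the 124.

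The test of a G4 response that differs between lines was passed by 1 of 121 members (0.826%), close to the background of 0.72%, so the count says nothing particular of the members. That probe set belongs to RPL39L, a testis-enriched paralog of RPL39, whose protein lines the exit tunnel. Its values in MKN74 were -3.36 with (uuaggg)4 and -3.74 with AS1411, against -2.59 with (uuaccc)4 and -2.62 with the reagent. In PC-3 they were 0.31 and 0.41 with the G4 oligonucleotides, against 0.30 and 0.38, and in HBC4 0.13 and 0.07, against -0.15 and -0.07. The G4 minus control difference was thus -0.95 in MKN74, 0.02 in PC-3 and 0.21 in HBC4 (interaction F test in limma, adjusted p = 0.0253). MKN74 was the line where this probe set lay lowest on all 4 arrays. The call was lost, leaving 0, when any array other than the (uuaggg)4 array of PC-3 or of MKN74 was left out. RPS29 on 238824_at had a difference of 0.84 in PC-3, while HBC4 had -0.04 and MKN74 had 0.07, without passing (adjusted p = 0.226).

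**Figure D4:**
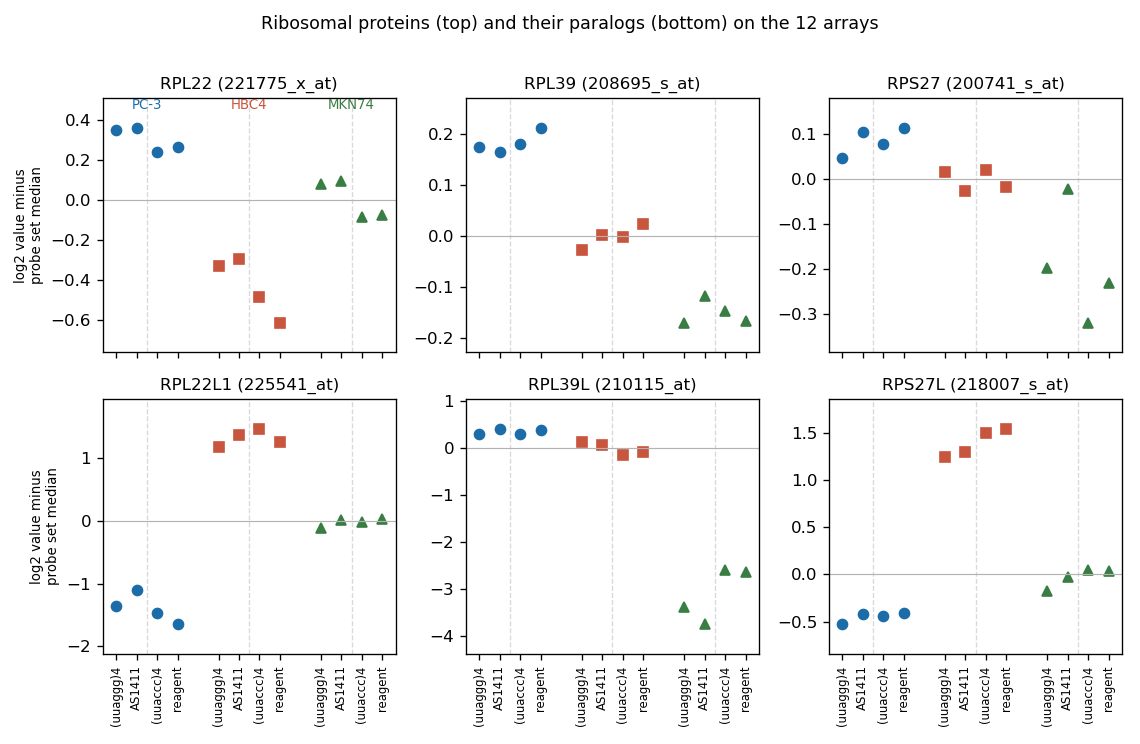
The 12 arrays of a ribosomal protein (top) and its paralog (bottom), with the log2 value minus the probe set median on the y axis (panels have different scales) and treatment within line on the x axis, G4 oligonucleotides left of each dashed line. RPL22L1 and RPS27L are highest in HBC4, RPL39L is lowest in MKN74 and lower still there with the G4 oligonucleotides (-3.36 and -3.74, against -2.59 and -2.62).

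More members differed between lines than between treatments, and the same held for all probe sets. In either direction 75, 70 and 67 of 121 members passed for PC-3, HBC4 and MKN74. Of all 41091 probe sets 23438, 20549 and 22234 passed, against 879 in the G4 comparison. These totals therefore say little particular of the members. In PC-3 against the other lines 52 of 121 members were higher (background 26%) and 23 lower (background 31%), with a median of 0.11. In HBC4 26 were higher (background 23%) and 44 lower (background 27%), with a median of -0.07. In MKN74 16 were higher (background 28.7%) and 51 lower (background 25.4%), with a median of -0.11. All 3 comparisons use the same 12 arrays. The range between the highest and lowest line mean of a probe set had a median of 0.39 over the members and 0.53 over all probe sets, and 73 members (60.3%) had a range under 0.5, against 48.5% of all.

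The largest line differences belonged to single probe sets. Probe set 211690_at of RPS6 had a mean of 5.39 ± 0.23 in MKN74 (SD, n = 4 arrays each), against -0.16 ± 0.24 in PC-3 and -0.11 ± 0.18 in HBC4, a log2 difference of 5.53 (46.1-fold, adjusted p = 9.96e-12). The other 3 RPS6 probe sets had their lowest means in MKN74 (-0.42, -0.30 and -0.20) and their highest in HBC4 (0.26, 0.32 and 0.27). RPS21 on 214097_at averaged 3.97 ± 0.27 in PC-3, against -0.0047 ± 0.19 in HBC4 and -0.72 ± 0.20 in MKN74 (PC-3 minus the other lines 4.33, adjusted p = 3e-13). The other RPS21 probe set had the same order with smaller gaps, 0.41 in PC-3, 0.0002 in HBC4 and, lowest, -0.98 in MKN74.

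RPS29, a zinc-binding protein of the small subunit, averaged 2.34 ± 0.52 in PC-3 on 238824_at, -0.87 ± 0.24 in HBC4 and near its median in MKN74. Its other probe set gave 0.50, -0.22 and 0.02. In PC-3, RPL37 on 224763_at and 224767_at (1.72 and 1.64 above the other lines), RPL31 on 221593_s_at (1.63), RPL36 on 219762_s_at (1.51) and RPS15A on 235309_at (1.43), large and small subunit proteins, were also higher. RPS27 on 236621_at was higher in MKN74 by 1.30, while its other probe set was lower there by 0.24. RPL11 was higher in MKN74 (0.44, adjusted p = 8.77e-05) and lower in HBC4 (-0.40, adjusted p = 2.02e-04).

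Probe sets of a gene often gave different line patterns. Of 34 genes with several probe sets, PC-3 minus MKN74 differed between probe sets by over 0.5 for 18 and by over 1 for 11, led by RPS6 (from -5.55 to 0.44), RPS21 (from 1.39 to 4.69) and RPL35A (from -0.99 to 1.75). The RPL12 probe sets gave -0.04 and -0.03. Whether pseudogenes or other transcripts add to single probe sets was not tested.

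**Figure D5:**
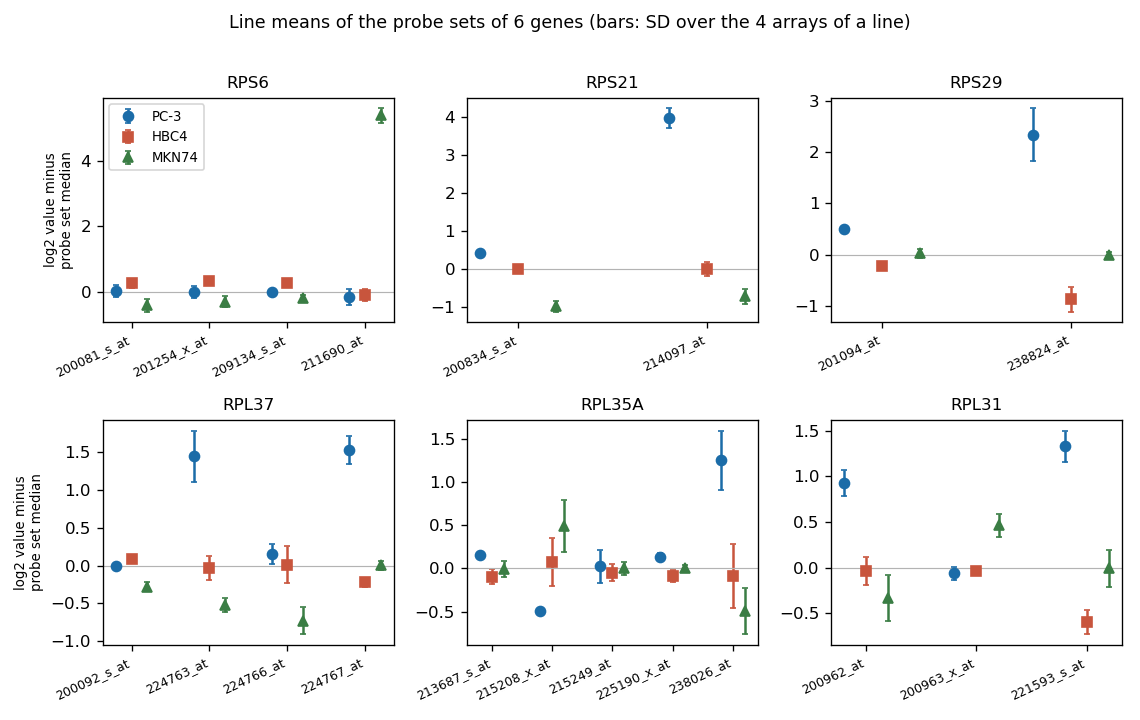
Means of the 4 arrays of each line (error bars, SD) for every probe set of 6 genes, with the log2 value minus the probe set median on the y axis and the probe sets on the x axis. RPS6 on 211690_at stands at 5.39 in MKN74 and RPS21 on 214097_at at 3.97 in PC-3, apart from the other probe sets of the same genes.

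Several paralogs differed strongly between lines. RPL22L1, the paralog of RPL22, averaged 1.32 ± 0.12 in HBC4, -0.02 ± 0.07 in MKN74 and -1.39 ± 0.23 in PC-3, with no overlap between lines (HBC4 minus the other lines 2.03, adjusted p = 2.94e-09). RPL22 had its highest mean in PC-3 on all 5 of its probe sets, while RPL22L1 had its lowest there. RPS27L, a paralog of RPS27 that p53 induces, was higher in HBC4 on its 3 probe sets, by 3.37, 1.64 and 1.11 (adjusted p = 3.55e-11, 1.05e-09 and 5.18e-08).

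RPL39L averaged -3.08 ± 0.57 in MKN74, against 0.35 ± 0.05 in PC-3 and -0.0034 ± 0.13 in HBC4 (MKN74 minus the other lines -3.25, adjusted p = 1.42e-08). RPL39 itself spanned 0.18 ± 0.02 in PC-3 to -0.15 ± 0.02 in MKN74. RPL36AL was higher in PC-3 by 1.46, RPL26L1 by 1.01 and RPL10L by 0.91 (adjusted p = 2.97e-09, 5.59e-08 and 3.18e-07). RPL3L, known from striated muscle, was higher in MKN74 by 0.72 (adjusted p = 0.00399) with a wide spread there, 0.64 ± 0.57, the values being 0.78 with (uuaggg)4 and 0.29 with AS1411, against 0.12 with (uuaccc)4 and 1.38 with the reagent. RPL7L1 was lower in HBC4 (-0.26, adjusted p = 0.0209) and higher in MKN74 (0.22, adjusted p = 0.0468) than in the other lines.

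With G4 oligonucleotides the 10 paralog probe sets had a median of -0.03, 5 were positive and RPL10L alone passed. The 3 probe sets of RPS27L gave -0.20 ± 0.09, -0.19 ± 0.14 and -0.15 ± 0.10 and were negative in each line (adjusted p = 0.138, 0.273 and 0.225). On 222487_s_at the values were -0.34 with (uuaggg)4 and -0.36 with AS1411 in PC-3, against -0.23 with (uuaccc)4 and -0.25 with the reagent. HBC4 had 0.99 and 0.75 with the G4 oligonucleotides, against 1.14 and 1.01, and MKN74 had -0.05 and -0.22, against 0.26 and 0.05. The groups did not overlap, although the difference did not pass the threshold over all probe sets. RPL22L1 (0.06), RPL26L1 (0.08), RPL36AL (0.01) and RPL7L1 (0.08) had small values that did not pass.

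With line means removed, the member genes whose gene means followed RPL35A most closely over the 12 arrays were RPS19 (Pearson's r = 0.887), RPS21 (0.870), RPL23A (0.854), RPS9 (0.849) and RPL9 (0.840). The arrays share lines and treatments, so these values describe the arrays only.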

How the data were processed

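Expression was measured on 12 Affymetrix arrays of 3 cell lines and 4 treatments. The authors deposited log values, and the submitters' processing notes name RMA. Across the arrays the median of each of the 54675 deposited probe sets is 0, with a largest deviation of 5e-07, so values were centred per probe set. The centring step and tool versions are not stated there. The log base of the deposited values is not stated and was taken as 2 (log2). Array controls (62), probe sets naming several genes (1801) and unnamed ones (11721) were left out of the tests. Gene names come from the platform annotation, and all 121 members matched RefSeq gene identifiers.

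Using limma 3.58.1 (lmFit, eBayes; R 4.3.3), linear models were fitted to 41091 probe sets and all 12 arrays, with treatment and cell line (6 residual degrees of freedom). P-values were Benjamini-Hochberg adjusted over all probe sets, with a threshold of 0.05. The line by class interaction was an F test that takes the 2 arrays of a class in a line as replicates. SD of a treatment difference is over 3 lines and of a line mean over 4 arrays; intervals are 95%. The replicate number of a treatment stands for the same cell line, so cell line is the pairing block; deviations of arrays of the same line correlated at 0.931 or more. The labels name no separate cultures, so p-values measure the spread between arrays of different treatments and lines. The fitting code was tested on simulated data.

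A rule named up to 12 member probe sets a direction that passed with 1 sign in 3 lines (else the 4 largest by size). It also named up to 10 a direction for each line and the 6 smallest interaction p-values. Stalk proteins, RPL35A, RPL11, RPS6 and paralogs with their parent genes were named as well. Counts of named probe sets refer to this rule, and not all of them are printed with values. RPS24 on 1555878_at in PC-3 and RPS29 on 238824_at for AS1411 against the reagent are among those left out. Other probe sets are given where a count rests on them or as examples, such as RPS15A on 235309_at in PC-3, after their values were seen. Lists covered TOP genes, ribosome assembly, mitochondrial ribosomal proteins, initiation factors and translation signalling. Members, lists and tests were chosen with earlier results of these data known. Alternatives covered normalization, centring, 1 unit per gene, a filter on SD, cross-hybridising probe sets, robust eBayes, the block, the arrays in the fit and arrays or lines left out.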

Additional observations from a re-analysis of the deposited data

Results flagged for a closer look

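The G4 minus control difference of RPL39L varied between lines by 1.16 on the log2 scale, the gap between HBC4 (0.21) and MKN74 (-0.95), and its interaction test passed over all probe sets (adjusted p = 0.0253). RPL39L has a single probe set, whose MKN74 values lie about 3 below those of the other lines.

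Probe sets that name a ribosomal protein gene among several genes were outside the comparisons. In a fit that added all such probe sets, 65 of them named a ribosomal protein gene among others, and 6 of the 65 rose with G4 oligonucleotides while 0 fell. Their median was 0.15 and 62 were positive. In the main fit of 41091 probe sets 0.613% rose, 1.53% fell and 54.4% were positive. The shares over all 42892 probe sets of the wider fit were not computed. This set was examined after the data were seen, and no gene is named from it.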

How the results depend on the processing

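The median of the members in the G4 comparison was positive under all 24 alternatives, while the count of 9 varied: 7 passed after quantile normalization, 8 with arrays centred on their median, 5 without _x_at, _s_at and _a_at probe sets (fewer were tested) and 11 with class and line alone in the model. Leaving out an array or a line gave 0 to 5. With no replicate block, that is without the cell line pairing, 0 passed in the G4 comparison and 0 for AS1411 against the reagent. That comparison's 1 call also became 0 after quantile normalization, with the mean of probe sets per gene and with only the arrays compared, and lay between 0 and 1 when arrays or lines were left out. The interaction call became 0 after quantile normalization, and lay between 0 and 1 with arrays left out. The causes were not tested. For PC-3, HBC4 and MKN74 the 75, 70 and 67 calls became 41, 37 and 39 with 1 probe set per gene, 41, 36 and 36 with gene means, 38, 35 and 36 with only the most variable probe sets by SD, and 31, 27 and 27 without _x_at, _s_at and _a_at probe sets, with fewer units tested in each.

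Signs turned only where another probe set stood in for a gene. With 1 probe set per gene RPS6 gave -0.11 in the G4 comparison and -2.73 in HBC4, RPL37 gave 0.24 for AS1411 against the reagent, RPL35A gave 1.54 in PC-3 and -1.08 in MKN74, RPL31 gave -0.37 in MKN74, and for (uuaccc)4 against the reagent RPS28 gave -0.14, RPL14 -0.038, RPLP1 -0.030, RPS27L -0.095 and RPS14 0.16. With gene means RPL37 gave 0.088, RPS28 0.034, RPL35A 0.24 in PC-3 and -0.083 in MKN74, RPS6 -0.35 in HBC4 and RPL31 -0.22 in MKN74. Of the named probe sets' values under the alternatives, 98 of 305 in the G4 comparison kept their sign but lost the call of the main fit. For AS1411 against the reagent the count was 15 of 214. Only probe sets called in the main fit could lose a call. These were 9 of the 13 named in the G4 comparison and 1 of the 9 named for AS1411 against the reagent. In the main fit the smallest member difference called in the G4 comparison was 0.26 (RPS6 on 201254_x_at), so no member with a difference near 0.1 passed there. Which size of difference 12 arrays can call singly was not tested.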
